A study of Solanum lycopersicum with 12 samples.

Results

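Transcripts of 4 WRKY transcription factor genes of tomato (Solanum lycopersicum), WRKYIId, WRKYIId-1, WRKYIId-4 and WRKY2, were followed in roots and leaves with and without cadmium (Cd). They were found by matching the gene symbol in the array's probe-to-gene table, and each is measured by 1 probe set, so the genes account for 4 of the 10038 probe sets tested. The probe sets are Les.3961.1.S1_at (WRKYIId, gene ID 543858), Les.3969.1.S1_at (WRKYIId-1, gene ID 100125891), Les.546.1.A1_at (WRKYIId-4, gene ID 544202) and Les.3512.1.S1_at (WRKY2, gene ID 778199). A current gene table lists WRKYIId also as SlWRKY21, WRKYIId-4 as SlWRKY26 or SlWRKY8, and WRKY2 as SlWRKY2. All 4 lay above the array background on every array. The files name no genome build, so no positions are given.

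The titles give 4 groups of 3 single-channel Affymetrix arrays, here called root Cd, root ck, leaf Cd and leaf ck, where the ck plants had no Cd. The source label of the 3 arrays titled leaf Cd says that those leaves had no Cd either, so each leaf Cd result rests on the title alone. The labels give no dose, duration, plant age or cultivar, and no genetic change. Whether the 3 arrays of a group hold RNA from different plants is not given, so each p-value below is set against a spread between arrays that may be technical only. In whole organs, less RNA per cell and fewer cells of a type cannot be told apart.

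WRKY proteins are plant transcription factors that carry a conserved WRKY domain with a zinc finger and bind W-box elements in the promoters of their targets, many of them defence genes. They act downstream of mitogen-activated protein kinases and calcium signals and often regulate one another. Proteins of group IId hold a calmodulin-binding motif, and in Arabidopsis the IId factors WRKY11 and WRKY17 are known as negative regulators of basal resistance to bacteria. In tomato, SlWRKY8 has been described as a positive regulator of resistance to a bacterial pathogen. The subgroup of WRKY2 is not given in the files.

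Values are deposited log2 expression, and differences are Cd minus ck or root minus leaf. The array medians lay between 7.46 and 7.50 in root and between 6.85 and 6.89 in leaf, so levels between the organs are also given after each array was centred on its own median. Background, the highest of 23 negative control probe sets, was 3.13 to 3.57 on root arrays and 2.69 to 3.01 on leaf arrays. Leaf Cd 3 stood apart: it was the 1 array of 12 whose mean correlation with its own group (0.963) was below that with the other group of its organ (0.964), and its array weight of 0.155 was the lowest. Of 9 root markers, ST1, NRAMP1, PT2 and ext1 were at background on all 6 leaf arrays, and FER on all leaf ck and 2 leaf Cd arrays. These 5 genes were higher in root than in leaf by the test under Cd and in the controls. FRO1 (-3.44 under Cd and -3.04 in the controls, root minus leaf) and ST2 (-1.23 and -3.45) were lower in root, against the list's name, and AMT1-2 and PT1 did not pass. All 8 green tissue markers lay above background on every root array. Their summed level (log2) ranged from 13.43 to 13.99 in root Cd and from 14.10 to 15.02 in root ck, and from 14.81 to 15.05 in leaf Cd and from 15.12 to 15.24 in leaf ck. The summed green level was thus lower on every Cd array than on every ck array of the same organ, with 1 of the 8 genes (CAB4) passing the test in root and 0 of 8 in leaf. The summed root marker level ranged from 13.07 to 13.34 in root Cd and from 12.29 to 12.57 in root ck. By the test 5 of 9 genes (FER, NRAMP1, ST1, ST2 and ext1) were higher in root Cd. In leaf the sum ranged from 10.76 to 11.31 in leaf Cd and from 10.29 to 10.82 in leaf ck, where the groups overlapped and 0 of 9 passed. Whether this sum tracks root tissue under Cd was not tested. The part of either list in the WRKY values was not tested.

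**Figure D1:**
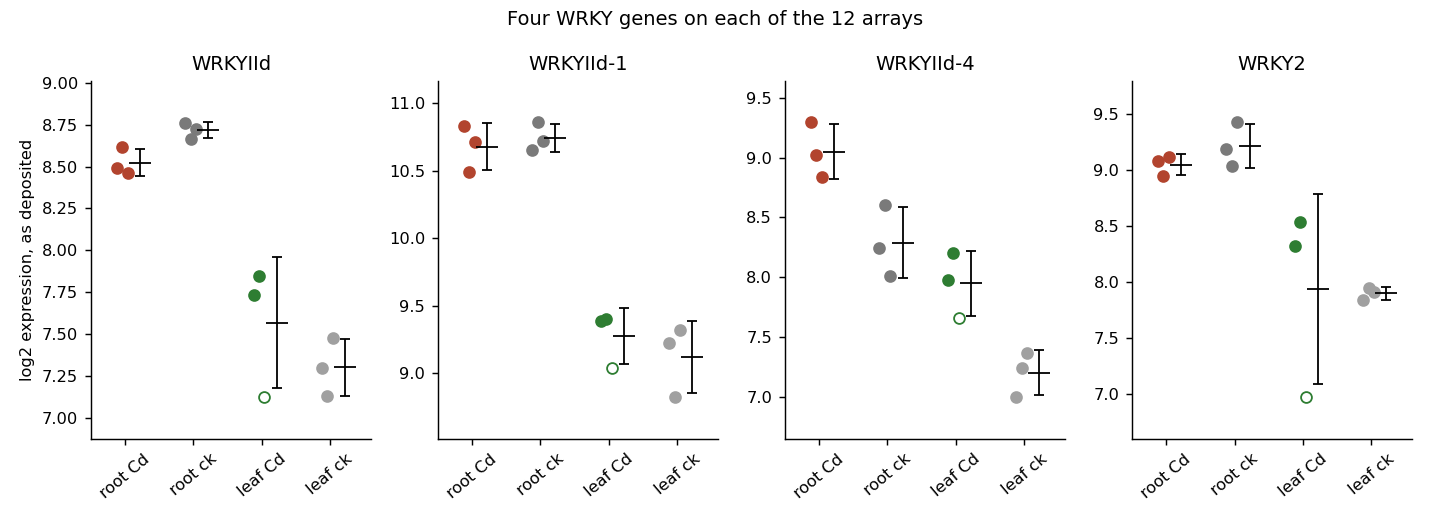
Deposited log2 expression (y axis, a separate range per gene) of the 4 WRKY genes on the 12 arrays, by group. Points are arrays, the open point is leaf Cd 3, and bars show the group mean ± SD (n = 3); WRKYIId-4 is higher in the Cd groups of both organs with no overlap, and leaf Cd 3 is the lowest leaf Cd array in all 4 genes.

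WRKYIId-4 was the member with a higher level under Cd in both organs. In root it had 9.29, 9.02 and 8.84 in root Cd, against 8.25, 8.60 and 8.01 in root ck. In leaf it had 7.98, 8.21 and 7.66 in leaf Cd, against 6.995, 7.24 and 7.37 in leaf ck. Every Cd array lay above every ck array of its organ, which held in 13.5% of all probe sets in root, in 13.8% in leaf and in 2.17% in both organs. The group means were 9.05 ± 0.23 in root Cd and 8.29 ± 0.30 in root ck, and 7.95 ± 0.27 in leaf Cd and 7.20 ± 0.19 in leaf ck (SD, n = 3 each).

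The difference of WRKYIId-4 was 0.76 in root (1.70-fold, SE 0.20, 95% interval 0.33 to 1.20) and did not pass the threshold of 0.05 over all probe sets (limma, adjusted p = 0.0695). In leaf it was 0.75 (1.68-fold, SE 0.20, 95% interval 0.31 to 1.18), which did not pass either (adjusted p = 0.0663). Both calls sat close to the threshold: the root difference passed without root ck 2 (0.92, adjusted p = 0.0482) and without leaf Cd 3 (0.76, adjusted p = 0.0490). The root difference also passed with array weights (0.95, adjusted p = 0.000138), where 37.3% of all probe sets passed. Those weights were highest for root ck 1 (8.12) and root Cd 1 (5.60). The leaf difference passed without leaf Cd 3 (0.89, adjusted p = 0.0346) and with array weights (0.83, adjusted p = 0.0453, where 5.45% of all probe sets passed). In all, the root difference passed in 3 of 22 settings and the leaf difference in 2 of 22, main fit included. Over these settings the adjusted p reached 0.259 in root and 0.183 in leaf. The differences went down to 0.63 in root and 0.62 in leaf. The root and leaf differences themselves differed by 0.02 (95% interval -0.60 to 0.63, adjusted p = 0.986).

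Averaged over root and leaf in the same model, a contrast added after the values were seen, WRKYIId-4 rose by 0.75 (1.69-fold, SE 0.14, 95% interval 0.45 to 1.06; limma, adjusted p = 0.0126). It was the 1 member of 4 that passed, where 6.12% of all probe sets passed in either direction and 2.88% of all probe sets passed as higher. Because this contrast was chosen for the pattern of WRKYIId-4, it describes that gene and is not independent evidence. The call held in the main fit and in all of its alternatives, 21 of 21 settings, with adjusted p between 0.000925 and 0.0374. For the other members the averaged difference was 0.04 for WRKYIId (95% interval -0.24 to 0.31), 0.04 for WRKYIId-1 (-0.21 to 0.30) and -0.06 for WRKY2 (-0.56 to 0.44).

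**Figure D2:**
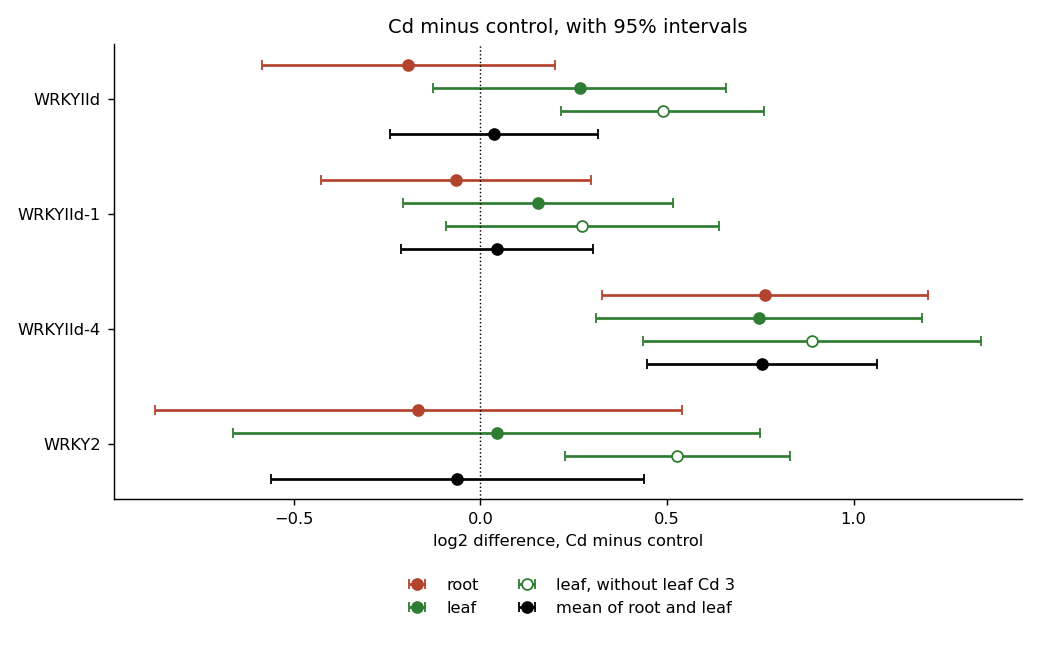
Log2 difference between Cd and ck (x axis) for each WRKY gene in root, in leaf, in leaf without leaf Cd 3, and averaged over the organs. Points are limma estimates and bars 95% intervals; all 4 intervals of WRKYIId-4 lie above 0, and those of WRKYIId and WRKY2 in leaf lie above 0 only without leaf Cd 3.

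In root, 0 of 4 WRKY genes passed in limma, where 3.03% of all probe sets did, and 1 of 4 (WRKYIId-4) had an unadjusted p under 0.05, where 17.4% did. WRKYIId had 8.49, 8.62 and 8.46 in root Cd, against 8.76, 8.66 and 8.73 in root ck. All 3 root Cd values thus lay below all 3 root ck values, which held in 13.9% of probe sets. The difference was small, -0.19 (95% interval -0.59 to 0.20, adjusted p = 0.696). Array weights, which were highest for root Cd 1 (5.60) and root ck 1 (8.12), gave -0.25 (adjusted p = 0.0275), a setting under which 37.3% of all probe sets passed.

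WRKYIId-1 overlapped between the root groups, with 10.83, 10.49 and 10.71 in root Cd, against 10.65, 10.86 and 10.72 in root ck. Its difference was -0.07 (95% interval -0.43 to 0.30, adjusted p = 0.911); as a ratio, that interval runs from 0.744 to 1.23. WRKY2 had 9.08, 8.95 and 9.12 in root Cd, against 9.18, 9.03 and 9.43 in root ck. The WRKY2 groups also overlapped, with a difference of -0.17 (95% interval -0.87 to 0.54, adjusted p = 0.879). The median difference of the 4 genes in root was -0.12, and that of all probe sets 0.02.

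In leaf, 0 of 4 passed in limma, where 3.78% of all probe sets did, and 1 of 4 (WRKYIId-4) had an unadjusted p under 0.05, where 19.2% did. All 4 differences were above 0, with a median of 0.21 against 0.02 over all probe sets, of which 53.2% were above 0. With 1 array left out, the difference of WRKYIId-1 went down to 0.005 and that of WRKY2 to -0.25. WRKY2 had 8.32, 8.53 and 6.97 in leaf Cd, against 7.84, 7.95 and 7.91 in leaf ck. Leaf Cd 1 and 2 thus lay above all controls and leaf Cd 3 below all of them. The SD of WRKY2 was 0.85 in leaf Cd and 0.06 in leaf ck, and the leaf Cd SD was larger than that of 93.8% of probe sets in that group. Its difference was 0.04 (95% interval -0.66 to 0.75, adjusted p = 0.965) with all arrays. It was 0.53 without leaf Cd 3 (95% interval 0.23 to 0.83, adjusted p = 0.0522), -0.15 without leaf Cd 1 and -0.25 without leaf Cd 2.

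WRKYIId had 7.73, 7.85 and 7.12 in leaf Cd, against 7.30, 7.13 and 7.47 in leaf ck. As in WRKY2, leaf Cd 1 and 2 lay above all controls. Leaf Cd 3 (7.122) was almost level with the lowest control, leaf ck 2 (7.130), unlike in WRKY2. After centring, leaf Cd 3 (0.272) lay above leaf ck 2 (0.251). The difference was 0.27 with all arrays (95% interval -0.13 to 0.66, adjusted p = 0.464) and 0.49 without leaf Cd 3 (95% interval 0.22 to 0.76, adjusted p = 0.0468). WRKYIId-1 had 9.38, 9.41 and 9.04 in leaf Cd, against 9.22, 8.82 and 9.32 in leaf ck. Its difference was 0.15 (95% interval -0.21 to 0.52, adjusted p = 0.674), and 0.27 without leaf Cd 3 (adjusted p = 0.365).

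Leaf Cd 3 was the lowest array of its group in 4 of 4 WRKY genes, as it was in 36.1% of all probe sets. Against the mean of leaf Cd 1 and 2 the difference was -1.45 in WRKY2, and 1.81% of probe sets had a lower one. The same difference was -0.67 in WRKYIId, -0.43 in WRKYIId-4 and -0.36 in WRKYIId-1, where the median size over all probe sets was 0.34. Without leaf Cd 3, 2 of 4 WRKY genes (WRKYIId and WRKYIId-4) passed in leaf, where 5.87% of all probe sets did in either direction and 3.17% of all probe sets did as higher. Leaving out the lowest array had to raise the leaf difference of each member, so these shares are not a like comparison. What sets leaf Cd 3 apart was not tested.

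The difference between the root and leaf responses passed for 0 of 4 WRKY genes in limma, where 0.757% of all probe sets passed, and 0 of 4 had an unadjusted p under 0.05, where 15.3% did. For WRKYIId, root response minus leaf response was -0.46 (95% interval -1.02 to 0.10, adjusted p = 0.416). With array weights it was -0.70 (adjusted p = 0.0303), where 7.02% of probe sets passed. For WRKYIId-1 it was -0.22 (95% interval -0.73 to 0.29) and for WRKY2 -0.21 (95% interval -1.21 to 0.79). Without leaf Cd 3 it was -0.68 for WRKYIId (adjusted p = 0.0713) and -0.69 for WRKY2 (adjusted p = 0.0908).

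Between the organs, all 4 WRKY genes had higher values in root than in leaf, as deposited and after median centring. After centring, 50.3% of all probe sets were higher in root under Cd and 52.9% in the controls. As deposited, the root arrays of all 4 genes lay above the leaf arrays of the same treatment, but so did the medians of the arrays. The share of all probe sets that did so is not given here. On deposited values, 6193 of 10038 probe sets passed the test as higher in root under Cd and 6119 in the controls. After centring, WRKYIId-1 was 3.20 ± 0.18 in root Cd and 2.41 ± 0.19 in leaf Cd, and 3.27 ± 0.09 in root ck and 2.24 ± 0.26 in leaf ck (SD, n = 3 each). Its root minus leaf difference was 1.03 in the controls (2.04-fold, adjusted p = 0.000516) and 0.78 under Cd (1.72-fold, adjusted p = 0.00238). It passed in all 22 settings of both contrasts.

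WRKYIId was 1.04 ± 0.09 in root Cd and 0.70 ± 0.38 in leaf Cd, and 1.24 ± 0.06 in root ck and 0.41 ± 0.16 in leaf ck, after centring. It was higher in root in the controls (0.83, 1.77-fold, adjusted p = 0.00333, called in all 22 settings) and differed by 0.34 under Cd (95% interval -0.05 to 0.73, adjusted p = 0.136), where leaf Cd 2 overlapped the root arrays. WRKY2 differed by 0.72 in the controls (95% interval 0.03 to 1.42, adjusted p = 0.0871) and by 0.49 under Cd (adjusted p = 0.230), where the groups overlapped. The control difference of WRKY2 passed in limma in 4 of 22 settings, with adjusted p up to 0.202 over all of them. It passed without leaf Cd 3 (adjusted p = 0.00107), an array outside this contrast that enters it only through the shared spread. It also passed with only the 6 control arrays (0.00433), with array weights (0.000904) and on values as deposited (0.00391). Without leaf Cd 3 the Cd difference was 0.012 for WRKY2 (adjusted p = 0.956) and 0.12 for WRKYIId (adjusted p = 0.444).

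WRKYIId-4 differed between the organs by 0.49 in the controls (adjusted p = 0.0655) and by 0.49 under Cd (adjusted p = 0.0677). The control value passed without root ck 3 (0.64, adjusted p = 0.0365) and without leaf Cd 3 (adjusted p = 0.0469). The Cd value passed without root Cd 3 (0.60, adjusted p = 0.0495) and without leaf Cd 2 (0.62, adjusted p = 0.0396). Array weights (adjusted p = 0.00938 in the controls and 0.0266 under Cd) and values as deposited let both pass. Quantile normalization over all arrays let the Cd value pass (adjusted p = 0.0437). The control value thus passed in 4 of 22 settings and the Cd value in 5 of 22, with adjusted p up to 0.235 and 0.225. Without leaf Cd 3 the Cd value of WRKYIId-4 was 0.35 (adjusted p = 0.195). In all, 2 of 4 genes passed in the controls, where 43.3% of all probe sets did (21.9% of all higher in root), and 1 of 4 under Cd, where 45.9% did (21.8% of all higher in root). These counts rest on the centring: on values as deposited 4 of 4 passed in each contrast, and so did 70.9% of probe sets in the controls and 73.2% under Cd.

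**Figure D3:**
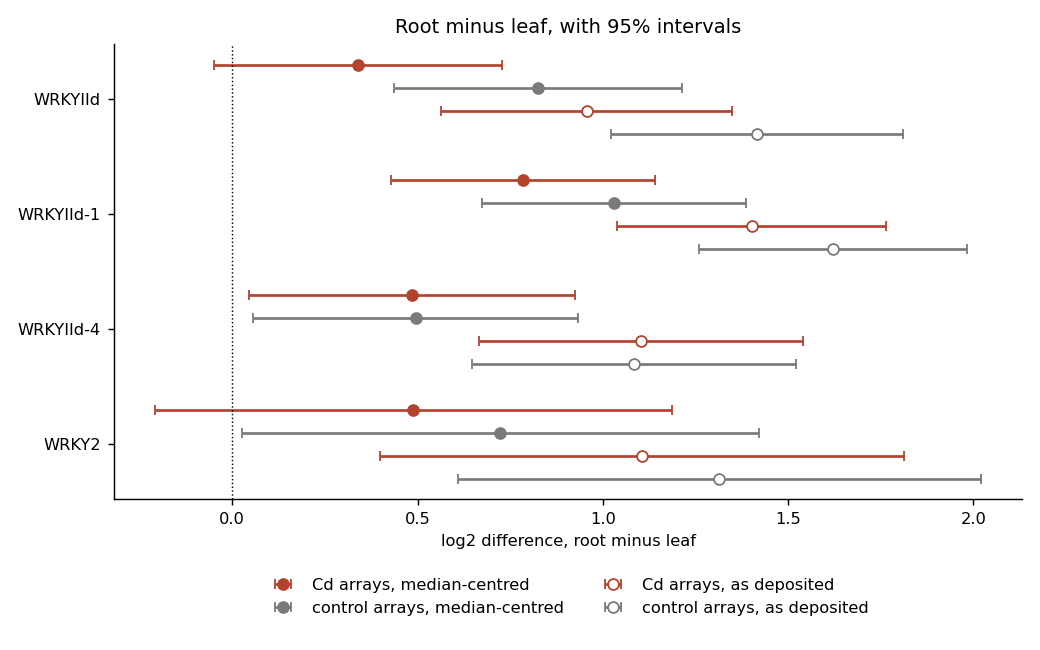
Log2 difference between root and leaf (x axis) for each WRKY gene, under Cd and in the controls, after array median centring (filled) and as deposited (open). Points are limma estimates and bars 95% intervals; every estimate is above 0, and each estimate as deposited is higher than its centred one.

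The order of the 4 groups differed between the genes after centring. For WRKYIId, WRKYIId-1 and WRKY2 it ran from root ck down through root Cd and leaf Cd to leaf ck. For WRKYIId-4 it ran from root Cd (1.57 ± 0.25) through leaf Cd (1.08 ± 0.27) and root ck (0.81 ± 0.29) to leaf ck (0.32 ± 0.19). In that order root Cd overlapped leaf Cd, and leaf Cd (1.09, 1.34 and 0.81) overlapped root ck (0.79, 1.11 and 0.53). The leaf ck values were 0.11, 0.36 and 0.47. For WRKYIId-1 and WRKY2, root Cd and root ck overlapped, and so did leaf Cd and leaf ck.

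Likeness of pattern was measured as the root mean square difference between the 4 group means after centring, each probe set less its own mean. Among the members, WRKYIId and WRKY2 were 0.08 apart, nearer to WRKYIId than all but 1.19% of probe sets. WRKYIId-4 was 0.38 from WRKYIId and 0.42 from both WRKYIId-1 and WRKY2. The named genes nearest to WRKYIId-4 were Eix1 (0.09), Ve2 (0.11) and PLDb1 (0.13). Eix1 encodes a receptor-like protein that binds a fungal xylanase, Ve2 a receptor-like protein of the Verticillium resistance locus, and PLDb1 a phospholipase D. Only 3 other probe sets were nearer to WRKYIId-4 than Eix1, and Eix1 and Ve2 each stayed among its nearest 3 in 9 of the 12 repeats that left out 1 array, PLDb1 in 6. Between Cd and ck, Ve2 did not pass in limma in root (0.96, adjusted p = 0.268) or in leaf (0.59, adjusted p = 0.494). The tests of Eix1 and PLDb1 are not given here.

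Nearest to WRKY2 were PP5, a protein phosphatase (0.02), SAM1, an S-adenosylmethionine synthetase (0.05), and SPY, a regulator of gibberellin signalling (0.06). WRKYIId was nearest to XTH5, a xyloglucan-modifying cell wall enzyme (0.06), to SAM1 (0.06) and to LOC543925 (0.06). For WRKYIId-1 the nearest were GPXle-1, a glutathione peroxidase (0.05), dhbK (0.07) and app2 (0.07). Including unnamed ones, 41 other probe sets were nearer to WRKYIId than XTH5, 15 nearer to WRKYIId-1 than GPXle-1 and 2 nearer to WRKY2 than PP5. The likeness is a description over 4 group means, which share the organ difference.

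**Figure D4:**
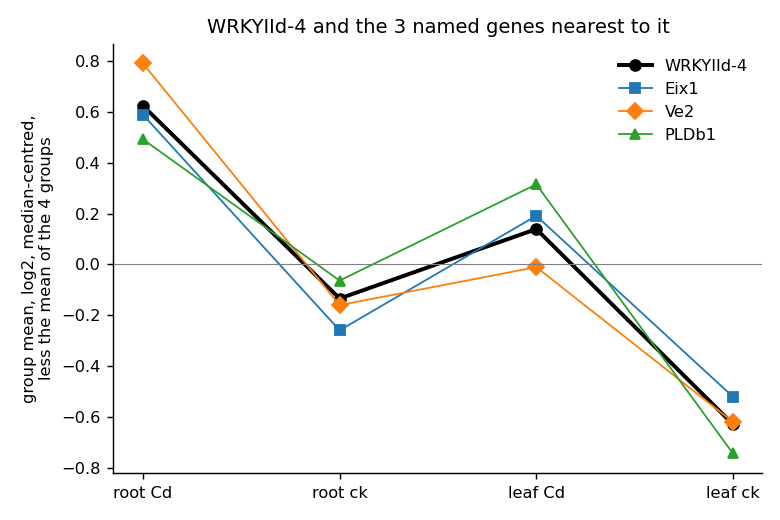
Group means (log2, array-median-centred, less the mean of the 4 groups; y axis) of WRKYIId-4 and of the 3 named genes nearest to it, Eix1, Ve2 and PLDb1, by group, with lines that only join the points of a gene. All 4 genes are higher in the Cd group than in the ck group of each organ, which largely follows from choosing the 3 by likeness of these means.

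The array holds 3 more probe sets of genes listed under a WRKY name, LOC543855 (synonym WRKYIId-2) and LOC543856 (synonym WRKYIIe-1). LOC543855 (Les.3964.1.S1_at) had 6.75, 5.93 and 6.57 in root Cd, against 6.06, 6.23 and 5.73 in root ck, a difference of 0.41 (95% interval -0.54 to 1.36, adjusted p = 0.742). In leaf it had 5.27, 5.74 and 3.69 in leaf Cd, against 4.13, 3.90 and 4.29 in leaf ck. Leaf Cd 3 again lay below all controls, and the difference was 0.79 with it (adjusted p = 0.356) and 1.40 without it (adjusted p = 0.0161). Between the organs, the centred root minus leaf difference of LOC543855 was 0.90 under Cd (adjusted p = 0.107) and 1.31 in the controls (adjusted p = 0.0289). Under Cd it was 1.32 without leaf Cd 2 (adjusted p = 0.0226) and 0.30 without leaf Cd 3 (adjusted p = 0.375). The control call was lost without root ck 1 (adjusted p = 0.0767), root ck 2 (0.0868), leaf ck 1 (0.0646) or leaf ck 2 (0.0845).

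LOC543856 has 2 probe sets, which did not give the same organ difference. After centring, Les.3963.1.S1_at was lower in root, with a difference of -1.44 under Cd (adjusted p = 0.00033) and -1.35 in the controls (adjusted p = 0.00062). Les.3963.1.A1_at differed by -0.38 under Cd (adjusted p = 0.0361) and by -0.37 in the controls (adjusted p = 0.0414), and the sign turned on values as deposited (0.23 and 0.22). Both calls were also lost with the replicate block (adjusted p = 0.0569 under Cd and 0.0645 in the controls), with the 6 arrays alone (0.0979 and 0.0547) and with a trended variance prior (0.0535 and 0.0602). They were lost without root ck 1, root ck 2 or any 1 root Cd array in both contrasts, without leaf Cd 1 under Cd, and without root ck 3, leaf ck 1 or leaf ck 2 in the controls (adjusted p up to 0.157). Between Cd and ck, Les.3963.1.S1_at differed by -0.09 in root and -0.03 in leaf and Les.3963.1.A1_at by -0.24 in root and -0.26 in leaf, and none of these passed (adjusted p between 0.329 and 0.962). WRKYIId-4 is likewise measured by a probe set whose name ends in A1_at, and no second probe set of it is on the array.

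Genes around the WRKY factors were read from lists by symbol. Of 12 pathogenesis-related proteins and chitinases, a class with known WRKY targets in other species, 3 rose in root (P4, PR1b1 and TSI-1, the last named after its value was seen), 0 fell and 9 were not called. In root the median over these genes was 1.68. P4 was 9.46 ± 2.31 in root Cd and 3.44 ± 0.13 in root ck (adjusted p = 0.0132), a call lost without root ck 1 (adjusted p = 0.0506), and PR1b1 was 10.56 ± 1.73 and 5.59 ± 0.44 in the same groups (adjusted p = 0.00481). TSI-1 was 6.76 ± 0.38 in root Cd and 4.14 ± 0.76 in root ck (adjusted p = 0.0337), and its call was lost without any 1 of root Cd 1 to 3, root ck 2, root ck 3 or leaf ck 1 (adjusted p up to 0.131). In leaf 0 of 12 passed, with a median of 0.21. P4 differed there by 0.56 (adjusted p = 0.831) and CHI14, a chitinase, by 0.55 (adjusted p = 0.697).

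Among 9 mitogen-activated and calcium-dependent kinases, 0 passed in root (median 0.21) and 0 in leaf (median -0.06). The kinases farthest from 0 were MKK3 (0.46, adjusted p = 0.691) and MEK1 (0.43, adjusted p = 0.229) in root, and MPK3 (0.66, adjusted p = 0.358) and MEK1 (0.49, adjusted p = 0.163) in leaf. The list of calmodulins and calcium sensors matched 2 genes, and neither is itself a sensor. They were ER66, a calmodulin-binding transcription factor (0.23 in root and 0.002 in leaf), and SOS2, a kinase activated by a calcium sensor (-0.03 in root and 0.02 in leaf). Neither passed.

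Of 8 disease resistance signalling genes 0 passed in root (median 0.33), and 1 fell in leaf (median 0.28). That was PTI4, an ethylene response factor, at 9.66 ± 0.33 in leaf Cd and 10.36 ± 0.06 in leaf ck (-0.70, adjusted p = 0.0348). The call was lost without any 1 of root ck 1, root ck 2, root Cd 1, leaf ck 1 to 3, leaf Cd 1 or leaf Cd 2 (adjusted p up to 0.115), or with only the 6 leaf arrays (0.181). PTI5, of the same family, differed by 2.23 in root (adjusted p = 0.209), and passed with the 6 root arrays alone (adjusted p = 0.0362) and with array weights (1.94, adjusted p = 0.0185). Ve1, a receptor-like protein of Verticillium resistance, differed by 1.69 in root (adjusted p = 0.0585) and by 1.38 in leaf (adjusted p = 0.0985), and both passed without leaf Cd 3 (1.69, adjusted p = 0.00668, and 1.96, adjusted p = 0.00418). The root difference of Ve1 also passed without leaf Cd 1 (adjusted p = 0.0421), with the 6 root arrays alone (0.0119), with quantile normalization over all arrays (0.0473) and with array weights (1.60, adjusted p = 0.000125). The leaf difference of Ve1 passed with array weights too (1.88, adjusted p = 0.0120).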

How the data were processed

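The authors deposited 1 table of log2 expression values for 12 Affymetrix tomato arrays. Per the submitters' processing notes MAS5 and RMA were used, with no version and no role for either. Per the labels, RNA was extracted with RNeasy columns and labelled as biotinylated cRNA. The table has 10209 probe sets, and 171 control probe sets were left out. Gene symbols come from the array's 2007 annotation, which names 909 of the 10038 probe sets left, and synonyms from a current gene table (885 matched).

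Group means were fitted over all 12 arrays with limma 3.58.1 in R 4.3.3 (prior degrees of freedom 2.84, residual 8), with Benjamini-Hochberg adjustment over the 10038 probe sets and a threshold of 0.05. Contrasts between organs used values centred on each array's median. In simulated data with 200 of 10038 probe sets changed by 2 log2 units, 188 were recovered in root and 189 in leaf, with 9 and 5 false calls. That change is larger than any Cd difference of a WRKY member, at most 0.76 in the main fit. The simulation therefore cannot show whether differences of their size would be found. The number of arrays limits the precision. The alternatives were other normalizations, array weights, variance priors, a filter, fewer arrays and a replicate block. Equal array numbers deviated together in leaf (correlations 0.35, 0.42 and 0.12), which by a rule of more than 0.1 in every pair counts as pairing, and not in root (0.00, -0.26 and 0.06). Tables and plots used Python 3.11.15, pandas 2.3.3 and matplotlib 3.10.9. The members and lists were chosen with earlier results of these data known. By rule the text names all members and other WRKY genes, the 2 genes farthest from 0 in root and in leaf from each of the 4 pathway lists (organ markers are checks outside it), and the 3 named genes nearest in pattern.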

Additional observations from a re-analysis of the deposited data

How the results depend on the processing

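Of 496 values of WRKY members under alternative settings, 455 kept their direction and side of the threshold. Another 23 passed where the main value had not, and 18 changed sign. In part the direction was fixed in advance. The variance priors, the filter, the replicate block and the compared arrays alone left the estimate unchanged. So did leaving out an array outside the contrast. No called member value changed sign. With array weights the averaged response of WRKY2 was 0.14 and the root difference of WRKYIId-1 was 0.11. With median centring the difference of responses of WRKYIId-4 was -0.0096. LOC543856 (Les.3963.1.S1_at) was 0.086 in root, 0.068 in leaf and 0.077 averaged with array weights, and in leaf 0.022 after quantile normalization within organ and 0.023 over all arrays. Its other probe set was 0.23 and 0.22 between organs as deposited. ER66 in leaf was -0.0015 and -0.0037 under the same quantile normalizations.

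Counts of WRKY members passing with array weights were 2 in root, 1 in leaf, 1 for the difference of responses, 2 between organs under Cd and 4 in controls. Of all 10038 probe sets, 3745, 547, 705, 5145 and 6594 passed there, in the same order, and 2086 for the averaged response. The main fit called 304, 379, 76, 4612, 4343 and 614. As deposited, 4 members passed in each organ contrast. With quantile normalization over all arrays 2 members passed under Cd, where 4465 of all probe sets did. The 6 arrays of an organ alone gave 202 in root and 65 in leaf (379 with all). Values as deposited gave 7346 under Cd and 7118 in controls, against 4612 and 4343 after centring. Of these, 6193 and 6119 were higher in root, against 2184 and 2203.

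Leaving out 1 array gave 85 to 409 calls in root, 127 to 589 in leaf, 26 to 160 for the difference of responses and 285 to 915 for the averaged response. Members passing were then 0 to 1 in root, 0 to 2 in leaf, 1 to 2 between organs under Cd and 2 to 4 in controls. Over all probe sets, 3667 to 4564 then passed between organs under Cd and 3361 to 5088 in controls. Among signs that turned, leaf WRKY2 ranged from -0.25 to 0.53, root WRKYIId-1 from -0.14 to 0.028, and the difference of responses from -0.13 to 0.17 for WRKYIId-4 and from -0.69 to 0.086 for WRKY2. The averaged response ranged from -0.033 to 0.15 (WRKYIId), -0.030 to 0.10 (WRKYIId-1) and -0.21 to 0.18 (WRKY2). LOC543856 (Les.3963.1.S1_at) ranged from -0.27 to 0.12 in root, -0.19 to 0.14 in leaf and -0.15 to 0.045 averaged. Root ranges were -0.20 to 0.63 (MPK3) and -0.14 to 0.094 (SOS2). Leaf ranges were -0.19 to 0.18 (SOS2), -0.16 to 1.14 (P4), -0.065 to 0.55 (PR1b1), -0.21 to 0.35 (ER66), -0.33 to 1.497 (PTI5), -0.20 to 0.94 (TSI-1) and -0.64 to 0.30 (MKK3).

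With the replicate block, 376 probe sets passed in leaf and 421 in root, and WRKYIId-4 had adjusted p = 0.0872 in leaf and 0.0814 in root. The block changed the call of no WRKY member; both organ calls of LOC543856 (Les.3963.1.A1_at) were lost with it (0.0569 and 0.0645). The causes of these changes were not tested.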
